A study of Macaca mulatta with 2 samples.

Results

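MYOC and ANGPTL7 were described here across the layers of the posterior eyecup of the rhesus macaque, 2 genes out of 26533 features in the reference of each section. They were found by their symbols in the feature lists, as MYOC (ENSMMUG00000013649) and ANGPTL7 (ENSMMUG00000006187), each with 1 row. They were picked because of their UMI levels in the sclera of these same sections, so the differences in level between layers describe the genes and were not tested. A UMI is a molecular tag that counts 1 captured RNA molecule once. At least 1 UMI of either gene was found in 249 of 534 tissue spots of the first animal (NHP1) and in 282 of 470 tissue spots of the second (NHP2).

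The data were 2 Visium sections, in which polyadenylated RNA is captured from fresh-frozen tissue on an array of barcoded spots and read near its 3′ end. NHP1 was a wild-type male aged 5 years whose right eye had been injected under the retina with AAV2-CAG-hRPE65, a vector carrying human RPE65 behind a ubiquitous promoter. NHP2 was a wild-type male aged 6 years whose right eye had been injected with AAV8-GRK1-hRPGRco and AAV8-GRK1-mScarlet, both behind a photoreceptor promoter. Each section was 10 µm thick and came from a 4 mm punch of posterior eyecup that lay outside the injected areas of a right eye. Both eyes had also undergone vitrectomy and had been given a subtenon depot of triamcinolone and a dexamethasone ointment at the end of surgery, and no eye without a glucocorticoid was part of the study. The paper reports that the eyes were harvested weeks after this surgery. The animals therefore differed in vector, age and section at once, and with 1 section per animal these cannot be told apart.

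MYOC encodes myocilin, a secreted glycoprotein with a coiled coil and an olfactomedin domain, and mutations that make it misfold in the trabecular meshwork of the anterior eye cause an inherited open-angle glaucoma. ANGPTL7 encodes a secreted protein of the angiopoietin-like family with a coiled coil and a fibrinogen-like domain, and loss-of-function variants of it are associated with lower intraocular pressure. Both genes are known to be induced by dexamethasone in trabecular meshwork cells, and both are expressed in collagen-rich tissues of the eye. The sclera is the fibrous outer coat of the eye, made by fibroblasts that lay down type I collagen and small proteoglycans such as decorin and fibromodulin.

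In the RefSeq annotation of Mmul_10, the build used by the authors, MYOC spans chr1:28959250-28975470 on the minus strand with 3 exons. ANGPTL7 spans chr1:213263477-213270203 on the minus strand with 5 exons. ANGPTL7 lies inside a 31134-base intron of MTOR, the kinase gene on the opposite strand, and no MTOR exon overlaps it. The 2 members thus sit on the same chromosome but far apart. The 250 bases before each annotated start are shown because the genes were found together in the same spots, with capitals marking matches to the motifs that were searched on both strands. They come from the minus strand of chr1:28975471-28975720 for MYOC and of chr1:213270204-213270453 for ANGPTL7.
MYOC: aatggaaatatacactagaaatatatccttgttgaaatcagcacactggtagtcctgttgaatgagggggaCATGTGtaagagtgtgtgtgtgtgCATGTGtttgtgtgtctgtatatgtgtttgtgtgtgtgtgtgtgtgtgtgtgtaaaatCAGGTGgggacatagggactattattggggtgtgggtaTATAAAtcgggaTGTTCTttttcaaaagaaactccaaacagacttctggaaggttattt
ANGPTL7: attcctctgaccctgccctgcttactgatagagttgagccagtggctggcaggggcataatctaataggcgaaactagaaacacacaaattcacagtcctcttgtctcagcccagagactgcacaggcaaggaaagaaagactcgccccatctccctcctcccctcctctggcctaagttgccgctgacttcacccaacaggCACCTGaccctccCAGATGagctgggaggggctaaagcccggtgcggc

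The motifs were the TATA box (TATAAA), the E-box (CANNTG), the AP-1 site (TGANTCA), the glucocorticoid receptor half-site (AGAACA) and the GC box (GGGCGG). The MYOC window held 1 TATA box from base -59 to -54, 3 E-boxes and 1 glucocorticoid receptor half-site from base -47 to -42, counted from the annotated start. The authors counted on Ensembl gene IDs, whose models may set other starts than RefSeq, and another start would change these positions and matches. The ANGPTL7 window held 2 E-boxes and no match to the other motifs. Among 21102 windows of the same length before protein-coding genes, 9.9% held a TATA box, 11.1% the half-site and 60.4% an E-box. The AP-1 site was found in 5.15% of these windows and the GC box in 43.4%. The MYOC window was 39.6% G and C, and the ANGPTL7 window 56.4%. An E-box was the only one of these motifs that both windows held.

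NHP1 had 1484784 UMIs in its tissue spots, with a median of 1474 per spot, and NHP2 had 805726, with a median of 371 per spot, so low levels are known less well in NHP2. The arrays share 4341 spot barcodes by design, which are positions and not cells. Spots were grouped into regions by their other genes, with both members left out, and each region was given the layer whose markers led it. Sclera was 1 region of 107 spots in NHP1, led by CHAD, FBLN1, PI16 and THBS4, and 3 regions in NHP2, of 119, 92 and 17 spots. All 16 sclera markers with at least 50 UMIs were at least 2 times higher in these regions than in neural retina in each section, while ASPN was at 0 in both. The NHP1 sclera region also held much retina RNA, with inner retina and photoreceptor markers at 163 UMIs per 10000 against 264 in its neural retina. The same markers stood at 64.0 in NHP2 sclera and 243 in NHP2 neural retina. In NHP2, 120 tissue spots with a median of 14 UMIs got no layer. Of these, 74 were in a region with fewer than 3 markers of any layer, 42 in a shallow region with none of its markers among its leading genes, and 4 had no UMI. The sclera region of 17 spots was also shallow, with a median of 22 UMIs, and was named because sclera markers such as DCN led it.

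Both genes were highest in sclera in both animals. MYOC stood at 87.4 UMIs per 10000 in the sclera of NHP1 (95% Poisson interval 81.5 to 93.7, 803 UMIs) and at 129 in that of NHP2 (124 to 134, 2179 UMIs). ANGPTL7 stood at 68.8 (63.5 to 74.4, 632 UMIs) and at 78.8 (74.6 to 83.2, 1332 UMIs). With 1 section per animal there was no replicate check, so all intervals cover counting error only. By UMIs, which for 3′ reads are not divided by transcript length, MYOC ranked 8th and ANGPTL7 11th of all genes in NHP1 sclera, and 5th and 9th in NHP2 sclera. Sclera held 79.8% of the MYOC UMIs and 81.4% of the ANGPTL7 UMIs found in NHP1 tissue, and 94.0% and 90.4% in NHP2 tissue.

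**Figure D1:**
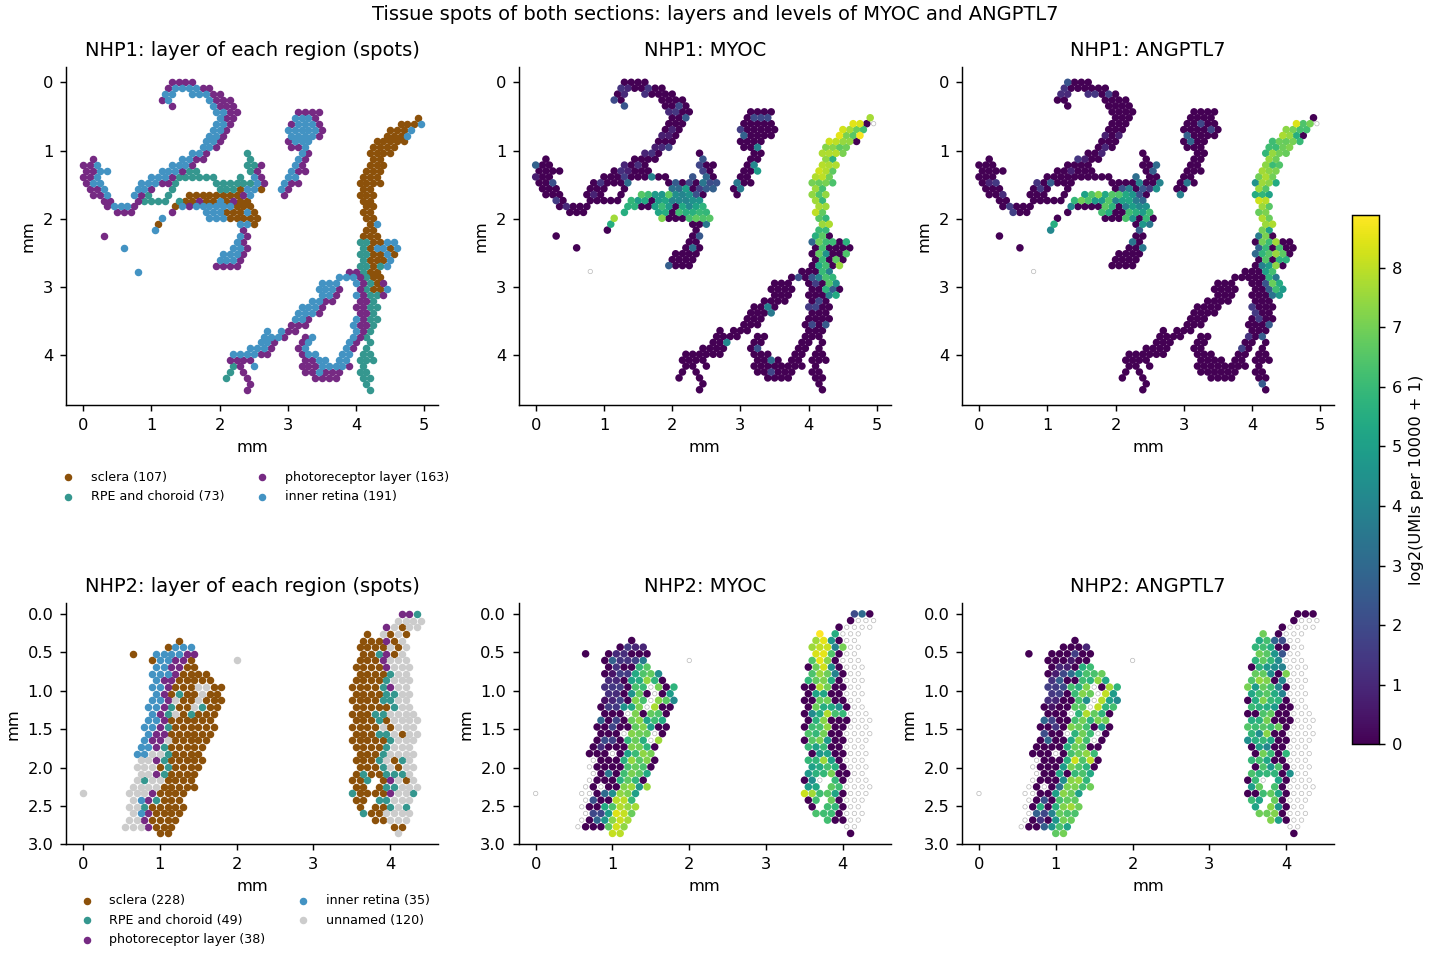
Each dot is a tissue spot at its place on the array (axes in mm), coloured by the layer of its region on the left, and by log2(UMIs per 10000 + 1) of MYOC in the middle and ANGPTL7 on the right, with spots under 50 UMIs as open circles. High levels of both genes follow the brown sclera spots, which number 107 in NHP1 and 228 in NHP2.

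In the RPE and choroid, the pigmented epithelium and the vascular coat between retina and sclera, MYOC stood at 5.33 UMIs per 10000 in NHP1 (4.17 to 6.71) and 33.3 in NHP2 (24.6 to 44.0). ANGPTL7 stood there at 3.63 (2.68 to 4.80) and 33.3 (24.6 to 44.0). These spots were not pure, since 15 of the 25 sclera markers in NHP1 and 9 in NHP2 also passed the marker rule there. Both genes were lowest in the retina. MYOC was at 0.850 in the photoreceptor layer and 1.17 in the inner retina of NHP1, and at 1.71 and 1.12 in NHP2. ANGPTL7 was at 0.731 and 0.771 in NHP1, and at 1.71 and 1.17 in NHP2. In the NHP1 inner retina, 1 shallow region of 102 spots held 49 of the 88 MYOC UMIs and 30 of the 58 ANGPTL7 UMIs. It stood at 6.08 and 3.72, and was thus not below RPE and choroid. The other inner retina regions of NHP1 stood at 0.556 and 0.657 for MYOC and at 0.397 and 0.478 for ANGPTL7. By whole layers, the order of both genes was sclera, then RPE and choroid, then retina in each section. The intervals of the photoreceptor layer and the inner retina overlapped for each gene.

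**Figure D2:**
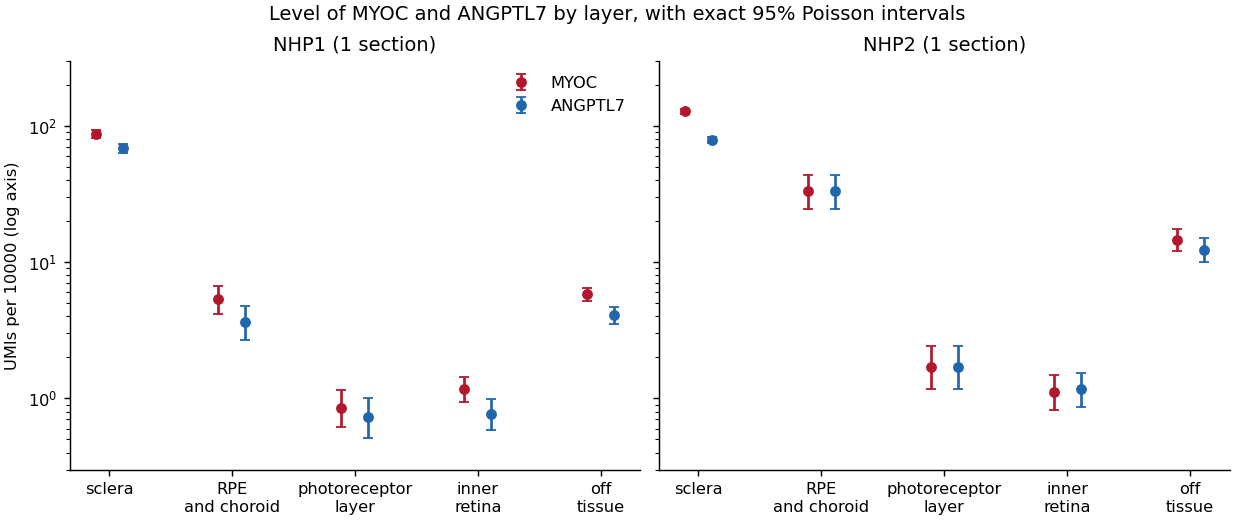
Points give UMIs per 10000 of MYOC (red) and ANGPTL7 (blue) by layer on a log axis, and bars are exact 95% Poisson intervals. In both sections the sclera is highest, at 87.4 and 129 for MYOC, and the retina lowest, below 2 for both genes.

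Sclera over neural retina (inner retina and photoreceptor layer together), the level of MYOC was 83.9 times higher in NHP1 (69.7 to 102) and 99.2 times higher in NHP2 (79.4 to 126). For ANGPTL7 the ratio was 91.1 (73.3 to 114) and 59.2 (47.3 to 74.9). As background, 8.53% of 5311 genes in NHP1 and 12.5% of 3453 genes in NHP2 were at least 2 times higher in sclera, and 18.2% and 32.2% were at least 2 times lower. The median gene had a ratio of 0.847 in NHP1 and 0.721 in NHP2. Ranked by this ratio, ANGPTL7 was 2nd and MYOC 3rd in NHP1, next to PITX1, a homeobox transcription factor, and PI16, a fibroblast peptidase inhibitor. MYOC was 4th and ANGPTL7 17th in NHP2, where FBLN1 and THBS4 (extracellular matrix glycoproteins) and PCOLCE (which enhances procollagen processing) came first. The Moran's I that the authors deposited, a score of how strongly a gene clusters in space, was 0.720 for MYOC and 0.726 for ANGPTL7 in NHP1, 4th and 3rd of 13804 genes. In NHP2 it was 0.393 and 0.280, 10th and 16th of 12542 genes.

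Most UMIs found in the retina of NHP1 lay near sclera. Retina spots up to 3 spot spacings from sclera held MYOC at 6.55 UMIs per 10000 (5.13 to 8.23), and those further off stood between 0.408 and 0.643. ANGPTL7 stood at 4.75 (3.56 to 6.22) in the nearer spots and between 0.163 and 0.574 further off. A spot spacing is 100 µm from centre to centre. In NHP2, 68 of 73 retina spots lay that close to sclera, so no such profile could be drawn. RNA just outside the tissue followed the same neighbours. In spots off the tissue and next to sclera, MYOC stood at 131 UMIs per 10000 in NHP1 and 62.3 in NHP2, against 1.27 and 1.57 in those next to retina. ANGPTL7 stood at 79.1 and 41.8 next to sclera, and at 1.35 and 0.523 next to retina. Over all spots off the tissue MYOC was at 5.79 and 14.6, and ANGPTL7 at 4.07 and 12.4. Spots next to sclera held 159 of these 303 MYOC UMIs and 96 of 213 ANGPTL7 UMIs in NHP1. In NHP2 they held 64 of 112 and 43 of 95. Spots more than 12 spacings from tissue stood at 1.58 and 3.16 in NHP1. In NHP2 such spots still stood at 13.5 (6.45 to 24.7) for MYOC and 17.5 (9.31 to 29.9) for ANGPTL7, from 10 and 13 UMIs. The layer levels of the retina were below those of off-tissue spots next to retina in NHP1, and within their wide intervals in NHP2 (0.323 to 4.58 for MYOC and 0.0132 to 2.91 for ANGPTL7), so no expression in retina is read from them. The 64 NHP1 retina spots near sclera were above that level, and the part of sclera in those spots was not tested.

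The members occurred in the same spots. At least 1 UMI of both was found in 129 of 534 tissue spots of NHP1 (24.2%, exact binomial 95% interval 20.6 to 28.0) and in 183 of 470 of NHP2 (38.9%, 34.5 to 43.5). In sclera, both were found in 94 of 107 spots in NHP1 (87.9%, 80.1 to 93.4), with 5 spots that held MYOC alone, 4 that held ANGPTL7 alone and 4 that held neither. Counted singly, MYOC was in 92.5% and ANGPTL7 in 91.6% of these spots. In NHP2 both were found in 151 of 228 sclera spots (66.2%, 59.7 to 72.3), with 16 holding MYOC alone, 24 ANGPTL7 alone and 37 neither. The share followed depth. In NHP2 sclera it went from 5 of 38 spots under 200 UMIs to 51 of 55 spots with at least 800 but under 1600 UMIs, and in NHP1 all 21 sclera spots of that depth held both. A spot can hold several cells, so this says nothing of whether 1 cell makes both.

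With each spot thinned to 300 UMIs, which puts all spots at 1 depth, both genes were found in 56 of 89 sclera spots in NHP1 (62.9%) and in 106 of 165 in NHP2 (64.2%). At that depth both were found in 2 of 329 neural retina spots in NHP1 (0.608%) and in 0 of 72 in NHP2, for which the exact interval reaches up to 4.99%. The thinning left out 18 shallower sclera spots in NHP1 and 63 in NHP2. The lower share of NHP2 sclera before thinning was thus not seen at equal depth. Within thinned sclera, ANGPTL7 was found in 76.7% of spots with MYOC and 68.8% of those without in NHP1. In NHP2 these shares were 82.2% and 63.9%, and the intervals overlapped in both animals. The joint share within sclera is thus not read as a special pairing, and other pairs of genes were not compared. Within sclera spots of at least 200 UMIs the levels of both genes were related. Spearman's rho between their UMIs per 10000 was 0.588 over 99 spots in NHP1 and 0.555 over 190 in NHP2. These spots share 1 section and 1 library in each animal, and depth itself had a rho of 0.528 with the MYOC level and 0.297 with the ANGPTL7 level in NHP2 (-0.233 and -0.226 in NHP1). The NHP1 spots also came from 2 pieces of tissue in which both members differed at once. Over all sclera spots of each piece, MYOC was at 141 and 32.6 UMIs per 10000 and ANGPTL7 at 106 and 31.1. Retina markers there were at 85.0 and 243. The part of the pieces and of retina RNA in rho was not tested.

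**Figure D3:**
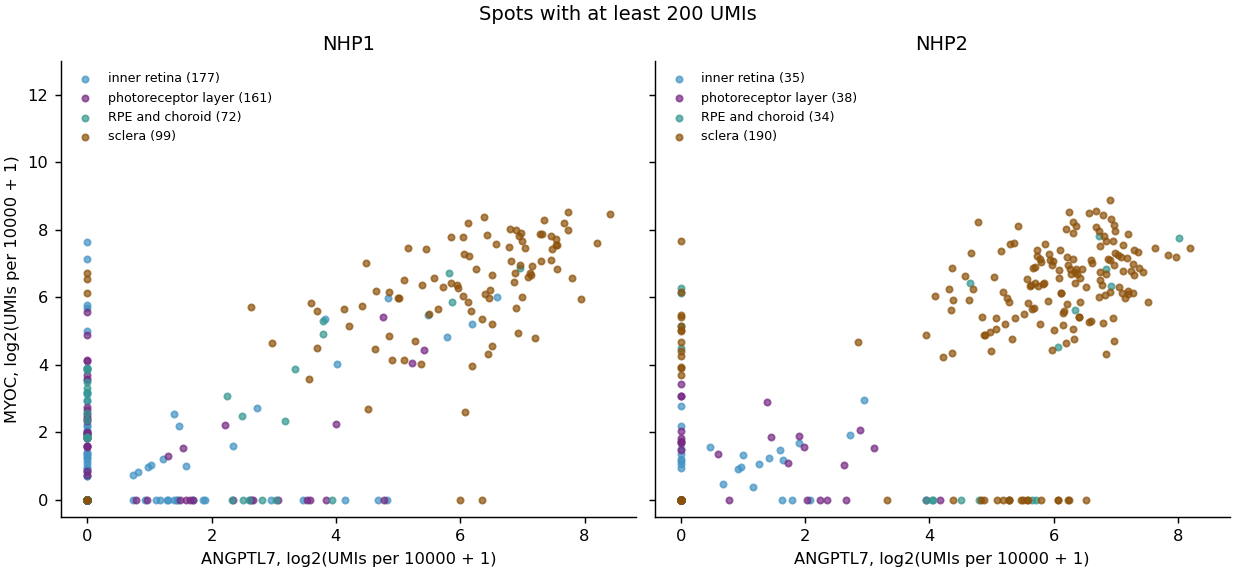
Each dot is a spot with at least 200 UMIs, with log2(UMIs per 10000 + 1) of ANGPTL7 on the x axis and of MYOC on the y axis, coloured by layer. The 99 sclera spots of NHP1 and 190 of NHP2 fill the upper right, while most retina spots lie on an axis, with 1 member at 0.

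Levels within sclera were uneven. In spots of at least 200 UMIs, MYOC ranged from 0 to 369 UMIs per 10000 in NHP1, with a median of 85.5, and from 0 to 470 in NHP2, with a median of 70.1. ANGPTL7 ranged from 0 to 339, with a median of 75.5, and from 0 to 292, with a median of 62.0. The 5 spots with most MYOC held 15.1% of its UMIs in NHP1 and 23.5% in NHP2, and the 5 with most ANGPTL7 held 14.9% and 14.5%. Although MYOC was higher in NHP2 by the sum over sclera, its median sclera spot was not. Deeper spots weigh more in the sum, and in NHP2 they had more MYOC per 10000, as the rho of 0.528 shows. Without the 5 top spots MYOC stood at 76.1 in NHP1 and 108 in NHP2, so the sum was still higher in NHP2.

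The 2 larger sclera regions of NHP2 differed in the balance of the members. The region of 92 spots, led by PCOLCE, CPXM1, FMOD and CYTL1, held MYOC at 150 UMIs per 10000 (143 to 158) and ANGPTL7 at 82.0 (76.8 to 87.4), or 1.83 MYOC UMIs for each of ANGPTL7 (1.69 to 1.99). The region of 119 spots, whose leading genes included HBA, KIAA1755 and FGL2, held them at 84.8 (77.2 to 93.0) and 72.8 (65.7 to 80.3), or 1.17 to 1 (1.02 to 1.34). The single NHP1 sclera region lay between, at 1.27 (1.14 to 1.41).

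The NHP1 section had sclera in 2 separate pieces of tissue, and they differed. MYOC stood at 141 UMIs per 10000 (130 to 152) in the 75 sclera spots of the first piece and 32.6 (27.6 to 38.3) in the 32 of the second. ANGPTL7 stood at 106 (96.5 to 115) and 31.1 (26.1 to 36.6). Retina markers stood at 85.0 UMIs per 10000 in the first and 243 in the second, where retina and sclera spots intermingle on the map, and sclera markers at 480 and 111. Counted per 100 UMIs of the sclera markers, MYOC was at 29.4 in both pieces. ANGPTL7 was at 22.0 in the first and 28.0 in the second on that scale. In NHP2 the pieces were alike in MYOC, at 125 and 131 UMIs per 10000, while ANGPTL7 was at 65.4 (59.1 to 72.3) and 86.3 (80.9 to 92.0).

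In NHP2 the members differed in how they lay with distance from the retina. In sclera spots up to 3 spacings from neural retina, from 3 to 6 and from 6 to 9, MYOC stood at 150, 80.2 and 54.1 UMIs per 10000 in NHP2. ANGPTL7 stood at 76.9, 85.7 and 69.1, with overlapping intervals. Within the pieces, ANGPTL7 beyond 3 spacings was 1.03 times (0.841 to 1.27) its nearer level in the first and 1.24 times (1.07 to 1.44) in the second. There were 1.95 MYOC UMIs for each ANGPTL7 UMI in the nearest spots (1.80 to 2.12), and 0.936 (0.805 to 1.09) and 0.783 (0.492 to 1.24) in the others. The first piece of NHP2 had only 10 neural retina spots, most of them at the end with high MYOC. Distance in that piece thus partly followed where retina could be named. Spots beyond 3 spacings had 0.339 times (0.282 to 0.406) the MYOC level of nearer ones in the first piece of NHP2 and 0.681 times (0.587 to 0.786) in the second. Much of this lay in 1 end of each piece. Cut into 3 equal lengths, the sclera held MYOC at 223 in the near spots of 1 end of the first piece and at 197 in those of 1 end of the second. Without these ends, which were chosen for their high MYOC, the far to near ratio was 0.826 (0.615 to 1.12) in the first piece, 0.891 (0.715 to 1.10) in the second and 0.789 (0.672 to 0.926) in both together. In the middle length of the first piece MYOC was at 49.2 in 5 near spots and 57.0 in the far ones. At its MYOC-high end the near and far values were 223 and 82.2, and at its other end 76.7 and 54.9. In the second piece they were 73.2 and 34.4, 99.3 and 85.4, and 197 and 136 over its 3 lengths, with intervals apart in the first and last. Distance from the retina and position along the piece were still not fully separate in these spots. Per 100 sclera marker UMIs, MYOC was at 23.1 in the nearer spots and 12.1 beyond 3 spacings, and ANGPTL7 at 11.8 and 13.2.

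Over all sclera spots of NHP1, both members were higher further from the retina. MYOC stood at 59.0, 172 and 196 UMIs per 10000 over the same distances, and ANGPTL7 at 52.4, 113 and 137. The retina markers in these spots were at 196, 47.2 and 55.0, and their part in this difference was not tested. Per 100 sclera marker UMIs, MYOC was at 28.1 in the nearer spots and 30.9 beyond 3 spacings (a ratio of 1.10, 0.954 to 1.26). ANGPTL7 was at 24.9 and 20.9 (a ratio of 0.839, 0.713 to 0.985). Over the 3 distances it was at 24.9, 18.1 and 24.4 on that scale, so it did not fall steadily with distance. All spots beyond 3 spacings were in the first piece, and within that piece MYOC was 1.73 times (1.48 to 2.03) and ANGPTL7 1.38 times (1.15 to 1.65) higher beyond 3 spacings than nearer. The low near values came from 1 end of that piece, whose 22 spots were all near and held MYOC at 53.8 and ANGPTL7 at 56.8. Without this end the far to near ratio was 0.892 (0.745 to 1.07) for MYOC and 0.806 (0.652 to 0.999) for ANGPTL7. At the opposite end MYOC was at 226 in near and 192 in far spots and ANGPTL7 at 159 and 116, and in the middle MYOC was at 149 and 166 and ANGPTL7 at 140.04 and 141. In these lengths the retina spots close to sclera were shallow spots of an inner retina region. They had, for example, 68, 134 and 23 UMIs at the opposite end and 92 in the middle. Neither member was higher further off in these lengths beyond its counting interval. However, near and far there may not measure distance from the retina.

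**Figure D4:**
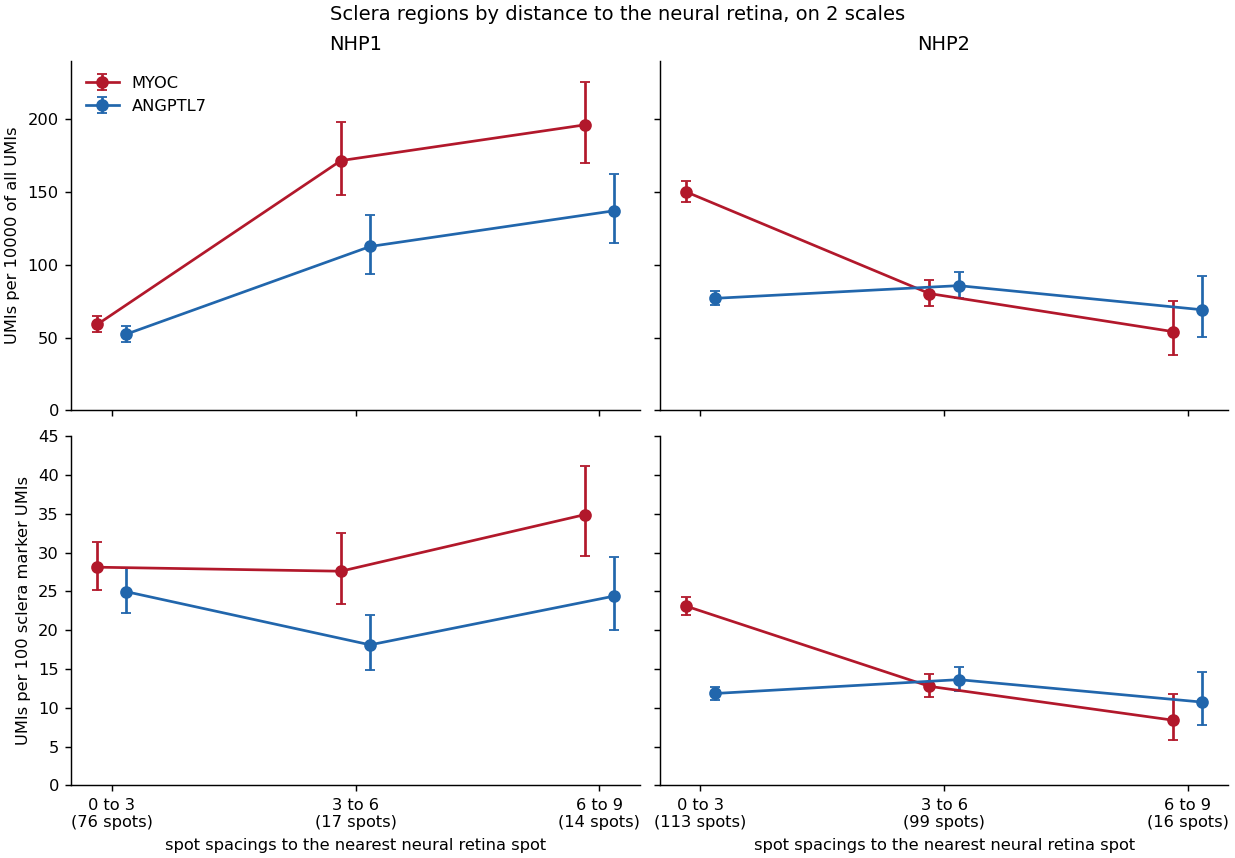
Levels of MYOC (red) and ANGPTL7 (blue) in sclera regions are plotted by the distance in spot spacings to the nearest neural retina spot, per 10000 of all UMIs (top) and per 100 sclera marker UMIs (bottom), with exact 95% intervals. In NHP2, MYOC falls from 150 to 54.1 per 10000 while ANGPTL7 stays between 69.1 and 85.7. In NHP1 both are higher further off per 10000. Per 100 sclera marker UMIs, MYOC in NHP1 is at 28.1, 27.6 and 34.9 and ANGPTL7 at 24.9, 18.1 and 24.4. Near and far spots lie at different places along the pieces, which these plots do not separate. Few or shallow spots named as retina set the distances in much of the first piece of each animal.

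The high MYOC of NHP2 sat at 1 end of each piece of tissue, on the side that faced the retina. These ends were picked by eye from the map of MYOC, as the retina-facing spots of the outer of 3 equal lengths of the sclera, so the MYOC values describe the choice. The end of the first piece (28 spots) held MYOC at 223 UMIs per 10000 and its other 81 sclera spots at 61.9. The end of the second piece (25 spots) held it at 197 and its other 93 sclera spots at 88.1. ANGPTL7 stood at 64.1 against 66.3 in the first piece, a ratio of 0.967 (0.784 to 1.19), and at 83.8 against 88.0 in the second, a ratio of 0.953 (0.833 to 1.09). There were 3.48 MYOC UMIs for each ANGPTL7 UMI at the first end and 2.36 at the second. These ends were also deeper, with a median of 822 and 1516 UMIs per spot against 402 and 522, and richer in sclera markers, at 766 and 810 UMIs per 10000 against 579 and 532. Schwann cell markers were at 5.94 and 3.26 against 4.95 and 11.1, and skeletal muscle markers were at 0 at both ends.

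Among 415 genes with at least 20 sclera UMIs in each NHP2 piece, 137 (33.0%) were higher at both ends than in the other spots and 7 (1.69%) at least 2 times higher at both, by ratios with 0.5 UMIs added. The genes were ranked by the lower of the 2 ratios. COL16A1, a collagen that associates with fibrils, came first with ratios of 3.44 and 3.71. PCOLCE had ratios of 2.75 and 5.19. FMOD, the proteoglycan fibromodulin that binds collagen fibrils, stood at 52.2 and 54.5 UMIs per 10000 against 17.3 and 21.4. CYTL1, a secreted cytokine-like protein of cartilage, had ratios of 4.14 and 2.45, and ITGB5, an integrin subunit, 2.28 and 2.85. MYOC was 6th in this order, CHPF, an enzyme of chondroitin sulfate synthesis, was 7th, and ANGPTL7 158th. The genes next in order included S100A6, a calcium-binding protein, and GDI2, a regulator of Rab GTPases, which are not matrix genes.

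Between the animals, MYOC in sclera was 1.48 times higher in NHP2 than in NHP1 (1.36 to 1.60) and ANGPTL7 1.15 times higher (1.04 to 1.26). The middle 50% of 831 genes with at least 50 sclera UMIs had ratios from 0.684 to 1.48, with a median of 1.01. ANGPTL7 thus lay within this range, and MYOC at its upper edge. The order turned when the members were counted against sclera markers. Per UMI of these markers, MYOC in NHP2 was 0.681 times (0.628 to 0.739) and ANGPTL7 0.529 times (0.481 to 0.582) its value in NHP1. Since the scale decides which animal is higher, no order of the animals is drawn from these values.

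Genes most like the members were found by the correlation of log2(UMIs per 10000 + 1) over the 7 regions of NHP1 and the 8 of NHP2, taking the lower of both sections, among 3396 genes with at least 50 UMIs in each. Each member was the closest gene to the other, with r of 0.996 in NHP1 and 0.994 in NHP2. PRELP, a leucine-rich proteoglycan of connective tissue, came next with 0.960 for MYOC and 0.962 for ANGPTL7. FBLN1 (0.940), PI16 (0.929) and MXRA8 (0.927, a matrix remodelling protein) followed for MYOC. FBLN1 (0.927), S100A4 (0.913, a calcium-binding protein of fibroblasts) and MXRA8 (0.912) followed for ANGPTL7. PRELP stood at 17.5 UMIs per 10000 in NHP1 sclera and 25.6 in NHP2 sclera, and at 1.18 and 0.942 in neural retina. PI16 stood at 27.1 and 97.2 in sclera, and at 0.326 and 1.22 in neural retina. Regions are few and share 1 library per section, so these values rank genes and carry no test. In NHP2, the unnamed regions and the shallow sclera region held only 4 to 6 UMIs of each member and counted as much as the others. Both members were also picked for their levels in sclera, which enter r.

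Genes with related roles did not all share the pattern, read against the background shares above. Of 10 genes known from trabecular meshwork, 6 in NHP1 and 5 in NHP2 had at least 50 UMIs, and 4 and 5 of them were at least 2 times higher in sclera than in neural retina, none lower. Decorin (DCN) was at 96.3 UMIs per 10000 in NHP1 sclera and 134 in NHP2 sclera, with ratios of 66.6 (56.7 to 78.5) and 65.3 (54.6 to 78.8). The calcification inhibitor MGP was 20.6 and 22.8 times higher, FMOD 31.3 and 60.1 times, and TIMP3, an inhibitor of metalloproteinases, 3.74 and 3.96 times. DCN and FMOD are also fixed sclera markers. The median ratio of the genes with at least 50 UMIs was 12.18 in NHP1 and 22.7 in NHP2.

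Of 24 other genes linked to glaucoma, only 7 in NHP1 and 4 in NHP2 had at least 50 UMIs, with a median ratio of 1.03 and 1.42. CAV1, the caveolin of cell surface pits, was 4.17 times higher in NHP1 sclera (2.12 to 7.71), and had 26 UMIs in NHP2, with a ratio of 1.42 (0.50 to 3.55). LTBP2, a matrix protein that binds fibrillin, had a ratio of 0.386 in NHP1 (0.0458 to 1.45), from 2 UMIs in sclera, and 36 UMIs in NHP2. EFEMP1, a fibulin of the matrix, was 1.98 times higher in NHP1 (1.19 to 3.15) and 1.94 times in NHP2 (1.34 to 2.79). OPTN, an autophagy receptor, had ratios of 0.794 (0.210 to 2.13) and 1.61 (0.813 to 3.03), which give no direction. GAS7, an actin-binding adaptor, had ratios of 0.573 (0.499 to 0.656) and 0.233 (0.197 to 0.274), below 1 in both. Some genes under 50 UMIs were higher in sclera in both sections, from few UMIs. LOXL1 had ratios of 6.22 (1.70 to 19.4) and 6.95 (3.21 to 16.0), and ANGPT1 8.56 (2.20 to 29.7) and 5.46 (1.74 to 18.7). Others under 50 UMIs gave no direction, such as TBK1 at 1.03 (0.203 to 3.22) and 0.628 (0.190 to 1.64). ATOH7, ABCA1 and LMX1B had no UMI in either section, and a count of 0 leaves room for up to 0.0202 per 10000 in NHP1 tissue and 0.0372 in NHP2 tissue.

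Of 16 glucocorticoid-responsive genes, 10 in NHP1 and 7 in NHP2 had at least 50 UMIs, and their median ratio was 1.77 and 0.689. TSC22D3, which encodes the anti-inflammatory protein GILZ, was 5.86 times (4.31 to 7.88) and 4.63 times (3.45 to 6.22) higher in sclera. CRISPLD2, a secreted protein, was 20.5 times (11.9 to 36.0) and 32.8 times (16.4 to 74.3) higher. FKBP5, a chaperone of the receptor and a common marker of its activity, was 4.63 times higher in NHP1 (2.75 to 7.53) and had fewer than 50 UMIs in NHP2. PER1, a clock gene, had ratios of 0.557 (0.379 to 0.794) and 0.472 (0.335 to 0.650). Of the genes with at least 50 UMIs, 4 in NHP1 and 2 in NHP2 were at least 2 times higher in sclera. In each section 1 was at least 2 times lower, and 5 and 4 lay between. Over all genes, 8.53% and 12.5% were at least 2 times higher, and 18.2% and 32.2% at least 2 times lower. Since all eyes had been given glucocorticoids, the part of the drug in the level of any of these genes was not tested.

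Genes that resemble the members in sequence or partner with them behaved in their own ways. Of 8 other olfactomedin-domain genes, 7 could be found by symbol in the feature list, and only OLFM1, a secreted neuronal glycoprotein, reached 50 UMIs, with ratios of 0.663 (0.338 to 1.18) and 0.289 (0.121 to 0.591). None of 12 other angiopoietin and angiopoietin-like genes reached 50 UMIs, and together they stood at 1.63 and 2.07 UMIs per 10000 in sclera. Of 10 partners of myocilin and modulators of Wnt signalling, 8 had at least 50 UMIs in each section, and 5 of these were at least 2 times higher and 3 at least 2 times lower in sclera, against 8.53% and 18.2% of all genes in NHP1 and 12.5% and 32.2% in NHP2. FN1 (fibronectin) was 17.9 times (11.6 to 27.9) and 30.2 times (20.3 to 46.4) higher, and SPARC, a matrix protein, 5.48 times (4.25 to 7.004) and 12.19 times (10.1 to 14.8). SFRP2, a secreted Wnt modulator, was 5.20 times and 22.5 times higher. The Wnt antagonists FRZB and WIF1 went the other way, with ratios of 0.318 and 0.315 in NHP1 and 0.354 and 0.205 in NHP2.

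The nearest sources of wrongly assigned reads were also read out. MTOR, which surrounds ANGPTL7 on the other strand, had 5 UMIs in NHP1 sclera and 7 in NHP2 sclera, or 0.544 and 0.414 per 10000. MYOCOS, the antisense neighbour of MYOC, had no UMI. Markers of other tissues that a punch can hold were low in sclera. Of 5 skeletal muscle genes found in the feature list the sum stood at 0.327 and 0.178 UMIs per 10000, with CKM at 0 in both sections. Of 4 fat genes the sum was 0 in sclera in both, and of 3 surface epithelium genes there was 1 UMI in NHP1 and none in NHP2. Of 7 Schwann cell genes the sum stood at 4.25 and 7.04, and of 7 myeloid genes at 8.82 and 6.09. Each of these sums was below the level of either member in sclera.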

How the data were processed

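Both genes and all gene lists were chosen with earlier results of these data known. The authors aligned the Visium reads with Space Ranger 2.1.0 to Mmul_10 with transgenes added and deposited unnormalized UMI counts for each gene in each spot, spot positions with a tissue mark, and a table of Moran's I, a score, with summed counts. The authors' p-values and average column in that table were not used. Other samples of the study were not analysed here.

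Counts over tissue spots were summed per layer and divided by all UMIs there. Tissue spots of each section were clustered with scanpy 1.11.5 and leidenalg 0.10.2 (scaled to 10000 UMIs, log1p, 2000 variable genes, 20 components, 15 neighbours, resolution 1), without MYOC and ANGPTL7. A region took the layer (inner retina, photoreceptor layer, RPE and choroid, or sclera) with the largest share of its markers at 3 or more UMIs and at least 1.5-fold over the rest of the section, with at least 3 such markers. Regions far shallower than their section and with no such marker among their 10 leading genes stayed unnamed. The naming rule followed a first look at the regions. Intervals are exact 95% intervals (Poisson, Clopper-Pearson, or conditional binomial for ratios), computed with scipy 1.17.1, for counting error only. A count of 0 was taken to allow up to 3 UMIs. The naming rule covered the members, the 5 genes most like each, and list genes with at least 20 tissue UMIs. Genes that led a region or a ranking, the genes of the NHP2 ends and genes given as 0 were named after their values were seen. No test was made, since each animal gave 1 section and spots are not replicates. The ratio calculation was tested on simulated data. RefSeq sequence came from the Mmul_10 genome. Alternatives changed the clustering, the layer rule, the depth filter, the scaling and the spots included.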

Additional observations from a re-analysis of the deposited data

Results flagged for a closer look

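The level of MYOC in sclera spots beyond 3 spacings from the neural retina was 3.11 times that of nearer spots in NHP1 and 0.510 times in NHP2. It was singled out because the only section of each animal moved the opposite way over all sclera spots. Within single lengths of the first NHP1 piece MYOC was not higher further off beyond its counting interval. In NHP2 it was lower further off, with intervals apart, at the MYOC-high end of each piece and at the other end of the second piece. The MYOC-high ends were chosen for their high MYOC. In the other lengths of NHP2 the near and far intervals overlapped. Few or shallow spots named as retina set these distances in the first piece of each animal. Without the end of the first NHP1 piece that had only near spots the ratio was 0.892 (0.745 to 1.07) within that piece, and without the MYOC-high ends of NHP2 it was 0.789 (0.672 to 0.926). The difference between the animals was not tested, with 1 section each. Per 100 sclera marker UMIs the NHP1 ratio was 1.10 (0.954 to 1.26) and the NHP2 ratio 0.526 (0.469 to 0.588).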

How the results depend on the processing

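Sclera stayed above neural retina for both members in both sections under each of the 6 alternatives of layer, filter and scaling. With each spot given the layer of its highest marker share, without clustering, MYOC in sclera was 60.4 UMIs per 10000 in NHP1 and 139 in NHP2, ANGPTL7 was 47.0 and 84.8, and both members were found in 65.1% of NHP1 sclera spots. Scaled to the UMIs left after dropping mitochondrial genes and the top 50 genes by UMIs (members kept), MYOC was 107 and 160 and ANGPTL7 84.3 and 97.7. Without the 5 spots with most UMIs of the member, MYOC was 76.1 and 108 and ANGPTL7 60.4 and 72.8. At a Leiden resolution of 0.5 the NHP1 sclera over neural retina ratio was 129 for MYOC and 128 for ANGPTL7. With the members kept in the clustering it was 124 and 128, and MYOC in NHP2 sclera was 121 per 10000. With a spot called positive at 2 UMIs, both members were in 16.5% of NHP1 and 29.6% of NHP2 tissue spots, and in 71.0% and 53.5% of sclera spots. Thinned to 300 UMIs, the NHP1 shares were 14.5% of tissue and 62.9% of sclera spots, and in spots of at least 200 UMIs the NHP2 shares were 57.2% and 76.8%. Among genes with at least 200 UMIs, 3 of the 5 genes most like ANGPTL7 were the same.

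Alternatives chosen after seeing the data bore on the animals and on distance. Scaled to sclera marker UMIs, the NHP2 over NHP1 ratio turned to 0.681 for MYOC and 0.529 for ANGPTL7, and the NHP1 ratio of far to near spots was 1.10 for MYOC and turned to 0.839 for ANGPTL7. Within the first piece of NHP1 the far to near ratio was 1.73 for MYOC and 1.38 for ANGPTL7. In NHP2 it was 0.339 and 0.681 for MYOC within the pieces and 0.627 without the 5 spots with most MYOC, and 1.24 for ANGPTL7 within the second piece. Without 1 end of a piece, the far to near ratio turned to 0.892 for MYOC and 0.806 for ANGPTL7 in the first piece of NHP1. In NHP2 it was then 0.826, 0.891 and 0.789 for MYOC in the first piece, the second and both, and for ANGPTL7 it turned to 0.968 in the first and 0.932 in both. The cause of these shifts was not tested. Of 106 alternative values 62 stayed within the interval of the value as reported or, for counts of genes, within 1.5 times of it. Scaling does not touch the shares of spots, so it gave no value for them. No paired analysis was possible because each animal gave 1 section. Depth sets the lowest level that can be seen, since a count of 0 allows up to 0.0202 per 10000 in NHP1 tissue and 0.0372 in NHP2 tissue.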
